A study of Homo sapiens with 9 samples.

Results

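Interferon-stimulated genes are the genes that a cell switches on when interferon binds its receptors. The 45 described here were matched by symbol to the Ensembl IDs of the count files, and all 45 were found among the 36601 genes counted. Their transcripts were measured by RNA-seq in LX2 cells, a human hepatic stellate cell line; stellate cells deposit collagen in the fibrotic liver. The siYAP group received an siRNA against YAP (gene YAP1), the siTAZ group an siRNA against TAZ (gene WWTR1), and the siNT group a non-targeting siRNA. YAP and TAZ are related coactivators of the Hippo pathway that act through TEAD proteins on DNA. Every group had 3 libraries, and all of them, siNT included, had 20 nM siRNA delivered by lipofection and 7 days of culture in medium with fetal bovine serum. The design text calls the libraries biological replicates without saying whether they came from separate cultures, so the spread behind each p-value is that between libraries and may be technical. LX2 is a single line, and no cells without siRNA are analysed here.

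Libraries held 16498508 to 18752805 counts in genes. A level of 3 counts, the floor used here for detection, corresponded to 0.157 to 0.177 CPM (read counts relative to the TMM-scaled size of each library), a limit that covers counting error only. The labels were checked on the targeted genes: YAP1 averaged 26.3 CPM in siYAP, 170.0 in siTAZ and 209 in siNT libraries, and WWTR1 averaged 75.8, 9.53 and 62.0 CPM in the same order. The markers of stellate cells and fibroblasts, collagen genes and SPARC foremost, were abundant in every library but moved with the groups. They summed to 5881 to 5978 CPM in siYAP, 16837 to 16921 in siTAZ and 11246 to 11407 in siNT libraries. Of 13 tested, 4 were higher and 8 lower after siYAP (33.8% and 33.4% of all genes tested were). After siTAZ 7 were higher and 1 lower (16.4% and 18.2% of all genes tested were). Among them LRAT, a defining marker of quiescent stellate cells, had no count, and DES was near 0. The 8 leukocyte markers summed to 13.7 to 15.2 CPM in siYAP, 9.72 to 12.3 in siTAZ and 12.7 to 14.1 in siNT libraries. Of the 3 tested, ITGAM was higher after siYAP (3.13 to 5.74 CPM, against 0.217 to 0.865 CPM in siTAZ and 0.283 to 0.518 in siNT libraries), PTPRC was lower after both siYAP and siTAZ (means of 0.147 CPM in siYAP, 0.427 in siTAZ and 2.60 in siNT libraries), and CD14 was not called. At a cutoff of 0.552 CPM, ITGAM passed the filter on low counts through the siYAP group alone, and PTPRC through the siNT group alone. The directions of these calls thus follow in part from the filter. CLEC4C, which defines the interferon-producing plasmacytoid dendritic cells, had no count in any library. The 3 endothelial markers summed to 6.17 to 7.51 CPM in siYAP, 2.44 to 3.22 in siTAZ and 6.28 to 7.13 in siNT libraries, with PECAM1 higher after siYAP (log2 fold change 3.60) and VWF and CDH5 lower after both. The hepatocyte markers summed to 12.8 to 16 CPM in siYAP, 0.704 to 1.96 in siTAZ and 1.78 to 2.0 in siNT libraries; SERPINA1 made up nearly all of this, ALB had 1 count over the 9 libraries and TTR none. The part of these markers in the results below was not tested. In bulk RNA, fewer expressing cells and less RNA per cell cannot be told apart.

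In the textbook pathway, cytosolic or endosomal sensors of foreign nucleic acid start the production of type I interferon, which binds IFNAR1 and IFNAR2. The kinases JAK1 and TYK2 at these receptors activate STAT proteins, and STAT2 and IRF9 are subunits of the complex ISGF3 that then forms. ISGF3 binds the interferon-stimulated response element (ISRE) in the promoters of target genes, whose products block virus entry, hinder translation, degrade RNA, tag proteins or feed back on the pathway. In the liver these genes are best known from viral hepatitis and from patients treated with interferon.

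The ISRE was looked for in the promoters, since it is the sequence through which the members are known to respond. Promoters of RefSeq (GRCh38.p14, 250 bases before to 50 after each gene's start) were found for 37 of the 45 members. The core searched was GAAA, any 2 bases, and GAAA again, on both strands, and it was present in 24 of the 37 (64.9%), against 3.65% of all 27305 promoters. The windows below are those of members whose values are described in detail, read on the strand of the gene. Capitals mark the match closest before the start (as its reverse complement, with TTTC at both ends, for HERC5, IFI44 and IFIT1). Some promoters held more matches, such as IFI6 and HERC5 with 3 each, and the ISG15 window contains another that is left unmarked.
IFI44L: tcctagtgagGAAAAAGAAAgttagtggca
IFI44: gcacactgagTTTCAGTTTCctttctctga
IFI6: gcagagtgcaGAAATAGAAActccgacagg
ISG15: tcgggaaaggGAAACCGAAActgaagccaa
ISG20: taacaaactaGAAACTGAAAcagggtcggg
HERC5: aaacattatgTTTCGTTTTCcactggagct
DDX60: gaggagaaagGAAACCGAAActcccgccgg
DDX60L: gtggagaaaaGAAACCGAAActaactccct
EPSTI1: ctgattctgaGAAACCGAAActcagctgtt
IFIT1: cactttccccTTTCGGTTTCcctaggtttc

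These 30-base windows lie at chr1:78620365-78620394 (IFI44L, plus strand), chr1:78649761-78649790 (IFI44, plus), chr1:27672266-27672295 (IFI6, minus), chr1:1013380-1013409 (ISG15, plus) and chr15:88638937-88638966 (ISG20, plus). The others lie at chr4:88457035-88457064 (HERC5, plus), chr4:168318786-168318815 (DDX60, minus), chr4:168480523-168480552 (DDX60L, minus), chr13:42992272-42992301 (EPSTI1, minus) and chr10:89392510-89392539 (IFIT1, plus). DDX60 and DDX60L, neighbours and paralogs, carried the same 10 bases at nearly the same distance, 53 and 50 bases before the start, and EPSTI1 carried them 50 bases before its own. Those bases also formed the match of ISG15, IFITM3 and MX1 and, as their reverse complement, that of IFIT1 and PARP12. They are therefore not particular to the pair. A second motif, the STAT-dimer site TTCNNNGAA, was present in 24.3% of the members' promoters and in 7.88% of all. The TEAD motif GGAATG, the letters bound by the DNA partners of YAP and TAZ, was present in 16.2% of the members' promoters and in 14.0% of all. OAS1, IRF9 and STAT2 held no ISRE match in this window, and TRIM22 was not among the promoters matched. A match describes letters and not a bound site.

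After siYAP, transcripts of most members were higher than after siNT. Of 44 members with enough counts to be tested, 34 were higher and 5 were lower (edgeR quasi-likelihood test, Benjamini-Hochberg adjusted p under 0.05 over 15560 genes), while 67.1% of all genes tested were called in this comparison, 33.8% as higher. Beyond 2-fold, 12 members were called higher (10.8% of all genes were) and TRIM25 was lower (8.97% of all genes were). The median log2 fold change was 0.66 over the members and 0.02 over all genes. The 5 lower members were IFIT1, IFITM2, TRIM25, STAT2 and EPSTI1, and USP18, IFITM3, SAMD9, IFI27 and PARP10 were not called.

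After siTAZ the same contrast with siNT gave smaller differences. Here 25 of 44 members were higher and 3 lower (TRIM25, SAMD9 and DDX60L), against 34.6% of all genes called and 16.4% called as higher. Of the members called, IFI44L, OASL and TRIM22 passed 2-fold, which 1.2% of all genes did upwards, and no member was over 2-fold lower, as 1.77% of all genes were. The median log2 fold change was 0.26 over the members and 0.01 over all genes. The comparisons of siYAP and of siTAZ with siNT share the siNT libraries, so their values are set side by side below and the difference itself is read from siYAP against siTAZ.

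In siYAP against siTAZ, 26 of 44 members were higher, 5 were lower (IFIT1, TRIM25, PARP10, STAT2 and EPSTI1) and 13 were not called, where 66.2% of all genes were called and 33.2% were higher. Beyond 2-fold 8 members were higher (10.2% of all genes were) and none was lower (8.59% of all genes were). The median log2 fold change was 0.31 over the members and 0.01 over all genes. The libraries of the compared groups did not overlap for 39 of 44 members in siYAP against siNT (70.5% of all genes), for 27 in siTAZ against siNT (44.6% of all genes) and for 30 in siYAP against siTAZ (68.2% of all genes). In siYAP against siTAZ this share of the members equals that of all genes. The share of members called there in either direction, 70.5%, is near the 66.2% of all genes. Neither is a result about the members. CMPK2, with 0 to 3 counts per library, was the member that could not be tested. RSAD2 passed the filter on low counts only through its siYAP libraries, and IFI27 and IFI44L only through siYAP and siTAZ libraries, so their part in these counts follows in part from the filter.

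Replicate 1 of siYAP stood apart in these genes. It was the highest of the 3 siYAP libraries for 35 of the 44 members (79.5%), against 32.6% of all genes tested. A smaller skew was seen in siTAZ, where replicate 3 was the highest for 24 of the 44 (54.5%, against 34.4% of all genes). The median log2 difference of the members from the siNT mean was 0.85, 0.55 and 0.53 in siYAP replicates 1, 2 and 3, and 0.28, 0.25 and 0.27 in the siTAZ replicates. Replicate 1 of siYAP also had the largest share of reads outside annotated genes, 7.49%. That share was 6.01% to 7.49% in siYAP, 5.53% to 5.63% in siTAZ and 4.73% to 5.13% in siNT libraries. The groups did not overlap in it, and its part in the results was not tested. Without siYAP replicate 1, siYAP against siNT had 33 higher and 5 lower members with a median of 0.54 (4965 genes in all were higher and 5107 lower). In the same setting siYAP against siTAZ had 22 higher and 6 lower members with a median of 0.21 (4903 genes in all were higher and 4979 lower). Summed over the members, CPM was 2804, 2600 and 2550 in siYAP, 2112, 2081 and 2150 in siTAZ, and 1842, 1821 and 1776 in siNT libraries, with no overlap between the groups.

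**Figure D1:**
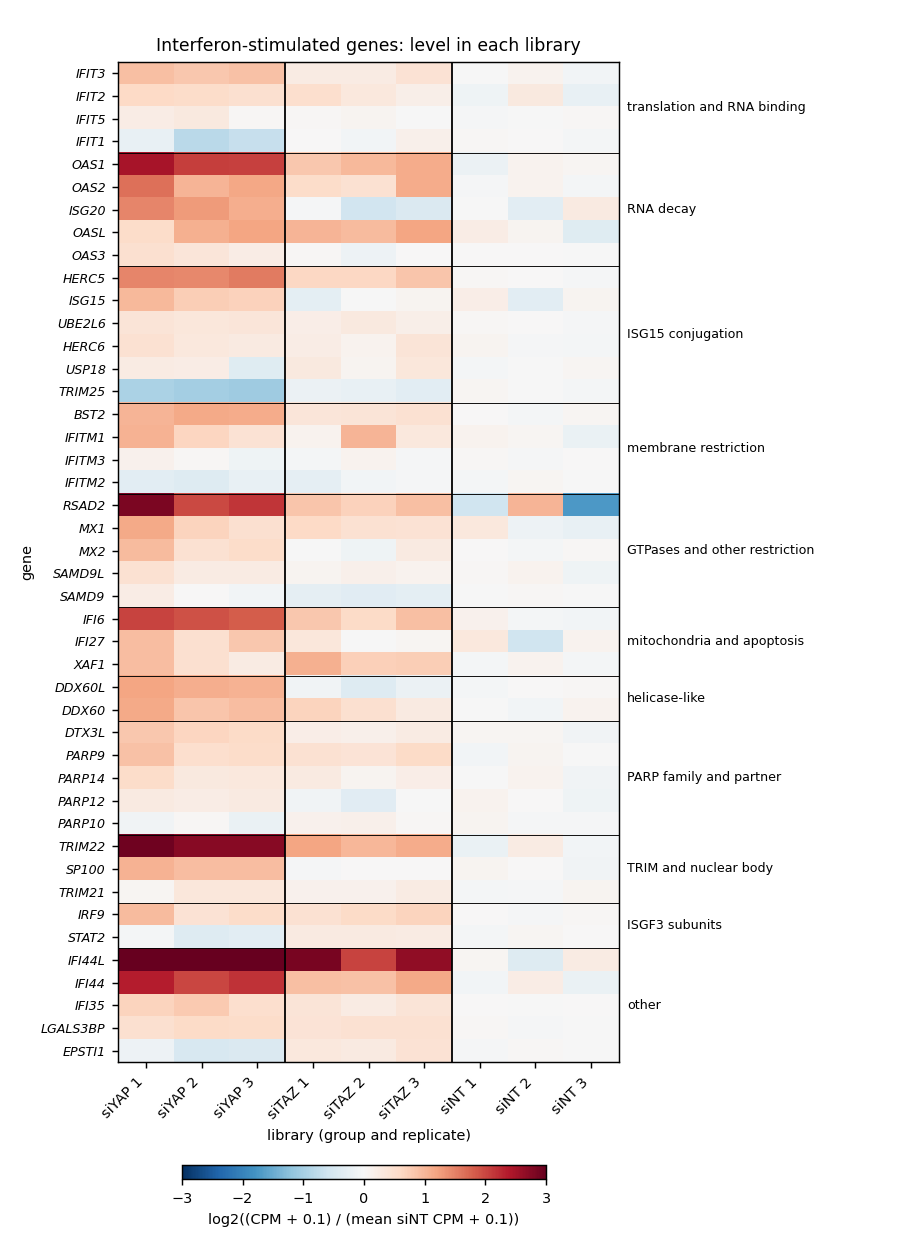
Level of each tested member in each library, as log2 of (CPM + 0.1) over (mean siNT CPM + 0.1), with libraries in columns and genes in rows grouped by role; red is above and blue below the siNT mean, and colours stop at 3. The siYAP columns are the reddest, with replicate 1 the highest for most genes, and TRIM25 and IFIT1 are blue there.

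**Figure D2:**
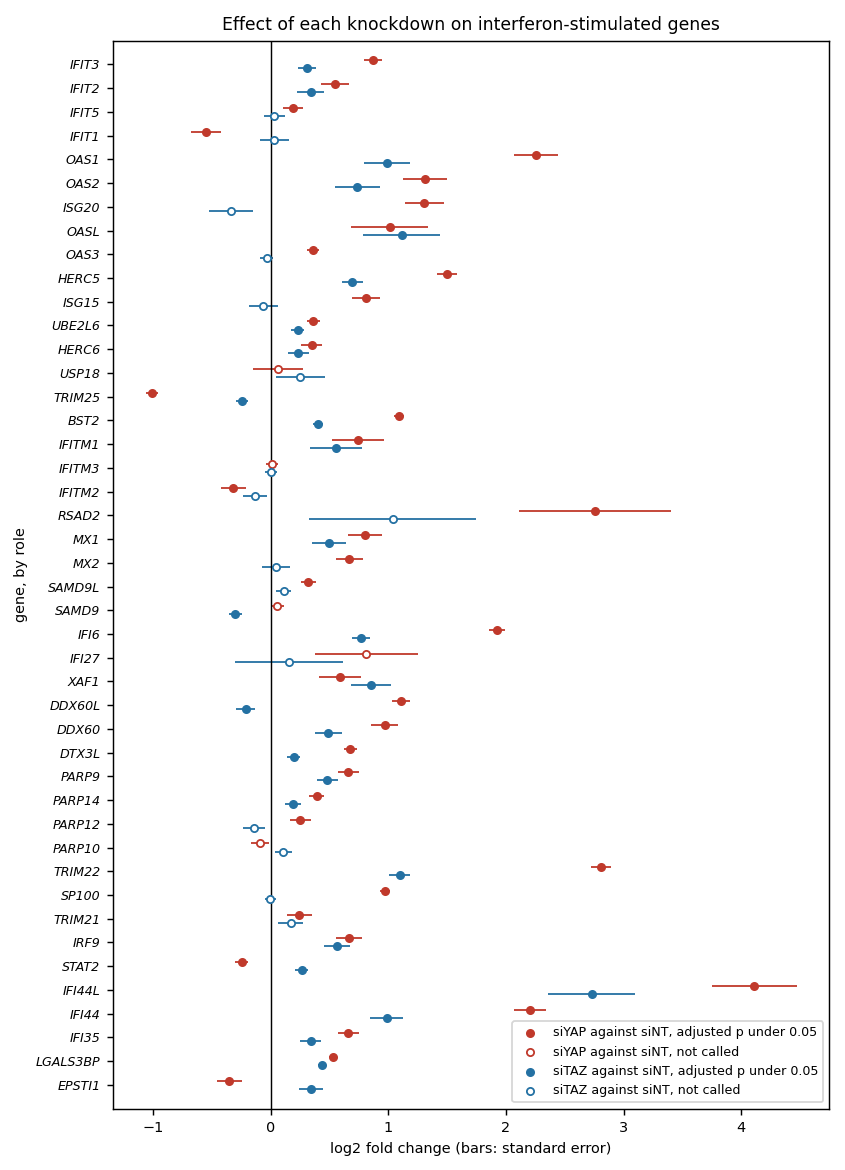
Log2 fold change with its standard error for each tested member in siYAP against siNT (red) and siTAZ against siNT (blue), with filled points at an adjusted p under 0.05. Red points lie mostly to the right of the blue ones, and TRIM25, IFIT1, EPSTI1, IFITM2 and STAT2 have filled red points left of 0.

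The STAT2 and IRF9 subunits of ISGF3 differed in their response. STAT2 had 84.8, 67.9 and 71.4 CPM in siYAP, 107, 106 and 106 in siTAZ, and 85.2, 91.7 and 88.8 in siNT libraries. All siYAP libraries lay below and all siTAZ libraries above the siNT range. On the log2 scale, STAT2 fell by 0.24 ± 0.06 after siYAP (log2 fold change ± SE throughout; edgeR, adjusted p = 0.000153) and was higher by 0.26 ± 0.06 after siTAZ (edgeR, adjusted p = 0.000101), and siYAP against siTAZ gave -0.51 ± 0.06 (edgeR, adjusted p = 1.09e-11). IRF9, the DNA-binding subunit, had 68.8, 47.9 and 52.4 CPM in siYAP, 48.9, 52.8 and 56.3 in siTAZ, and 35.6, 34.6 and 36.6 in siNT libraries. Both knockdown groups lay wholly above siNT and overlapped each other. The log2 fold changes were 0.66 ± 0.11 after siYAP (edgeR, adjusted p = 8.04e-05) and 0.56 ± 0.11 after siTAZ (edgeR, adjusted p = 0.000977), and their difference was 0.10 with a 95% interval of -0.11 to 0.31. Without siYAP replicate 2 that difference was 0.20 and called (edgeR, adjusted p = 0.0274).

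Among the genes of RNA decay, OAS1, OAS2, OAS3, OASL and ISG20, all 5 were higher after siYAP (33.8% of all genes were) and 3 after siTAZ (16.4% of all genes were). The OAS enzymes make the oligoadenylate that activates RNase L. OAS1 had 15.3, 11.6 and 11.4 CPM in siYAP, 4.76, 5.30 and 5.88 in siTAZ, and 2.36, 2.88 and 2.77 in siNT libraries. The groups were fully separated, at log2 fold changes of 2.25 ± 0.19 after siYAP (edgeR, adjusted p = 1.15e-17), 0.99 ± 0.20 after siTAZ (edgeR, adjusted p = 3.43e-05) and 1.26 ± 0.16 in siYAP against siTAZ (edgeR, adjusted p = 3.90e-10). OAS2 had 27.0, 17.5 and 19.3 CPM in siYAP, 12.5, 11.8 and 18.6 in siTAZ, and 8.31, 9.15 and 8.21 in siNT libraries. Its siTAZ replicate 3 reached the siYAP range, and without siYAP replicate 1 its difference between the knockdowns was 0.36 in place of 0.58. That difference was called (edgeR, adjusted p = 0.00703), but not in a fit over these groups alone (edgeR, adjusted p = 0.0676). OAS2 was higher by 1.31 ± 0.18 after siYAP (edgeR, adjusted p = 6.69e-06) and by 0.74 ± 0.19 after siTAZ (edgeR, adjusted p = 0.00592).

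OAS3, the most abundant of the OAS genes per kilobase in siNT cells, had the smallest difference of them after siYAP. Its log2 fold change was 0.36 after siYAP, while the siTAZ value of -0.03 was not called. OASL, a paralog without the synthetase activity, had 1.81, 2.61 and 2.84 CPM in siYAP, 2.54, 2.40 and 2.83 in siTAZ, and 1.41, 1.27 and 0.906 in siNT libraries. Both knockdown groups lay above siNT and overlapped each other. OASL was higher by 1.01 ± 0.33 after siYAP (edgeR, adjusted p = 0.00496) and by 1.11 ± 0.33 after siTAZ (edgeR, adjusted p = 0.00453), and the interval of the difference, -0.68 to 0.48, is wide. ISG20, an exonuclease that degrades single-stranded RNA, had 15.1, 13.1 and 11.6 CPM in siYAP, 5.25, 3.55 and 3.98 in siTAZ, and 5.31, 4.32 and 6.51 in siNT libraries. It was higher in siYAP libraries only, by 1.30 ± 0.16 against siNT (edgeR, adjusted p = 1.72e-10) and by 1.64 ± 0.17 against siTAZ (edgeR, adjusted p = 2.08e-13). Its siTAZ difference of -0.33 was not called, and without siTAZ replicate 1 it was called at -0.52 (edgeR, adjusted p = 0.0484).

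Of the members that act in attaching ISG15 to other proteins, ISG15, UBE2L6, HERC5 and HERC6 were higher after siYAP, and TRIM25 was lower. ISG15, a ubiquitin-like protein, had 48.6, 41.0 and 39.7 CPM in siYAP, 20.0, 24.6 and 26.2 in siTAZ, and 28.3, 19.7 and 25.9 in siNT libraries. Its siYAP libraries lay above all others, at 0.81 ± 0.12 against siNT (edgeR, adjusted p = 5.08e-06) and 0.87 ± 0.12 against siTAZ (edgeR, adjusted p = 2.02e-06). The siTAZ libraries overlapped siNT, with an interval of the difference from -0.31 to 0.18. HERC5, the ligase that attaches ISG15 in human cells, had 44.7, 44.4 and 48.3 CPM in siYAP, 24.9, 24.8 and 29 in siTAZ, and 16.7, 16.2 and 15.7 in siNT libraries. The groups were separate, at 1.5 ± 0.09 after siYAP (edgeR, adjusted p = 1.76e-24) and 0.69 ± 0.09 after siTAZ (edgeR, adjusted p = 1.94e-09). HERC6, which has that role in mouse, was higher by 0.35 and 0.24 after siYAP and siTAZ, and the conjugating enzyme UBE2L6 by 0.36 and 0.23. The siTAZ call of HERC6 was lost with DESeq2 (adjusted p = 0.0740) and without siNT replicate 2 or 3 or siTAZ replicate 3.

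TRIM25, a ubiquitin ligase of the RIG-I pathway that also takes ISG15, went the other way. It averaged 56.4 ± 1.97 CPM in siYAP, 96.2 ± 4.78 in siTAZ and 114 ± 4.71 in siNT libraries (SD, n = 3 each), with no overlap between any of the groups. It fell by 1.01 ± 0.05 after siYAP (edgeR, adjusted p = 2.55e-26) and by 0.24 ± 0.05 after siTAZ (edgeR, adjusted p = 8.81e-05). USP18, which removes ISG15 and restrains the receptor, was not called anywhere, at 4.10 ± 0.938, 4.70 ± 0.434 and 3.94 ± 0.181 CPM in siYAP, siTAZ and siNT. Of the 50-base words of USP18, 23.4% also occur in other genes, so its count is uncertain.

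The IFIT proteins, which bind foreign RNA and hinder its translation, are encoded side by side on chromosome 10 in the order IFIT2, IFIT3, IFIT1 and IFIT5. After siYAP the log2 fold changes along this order were 0.55, 0.87, -0.55 and 0.19, all called, and after siTAZ they were 0.34, 0.31, 0.03 and 0.03, of which the first pair was called. IFIT1 had 13.2, 8.67 and 9.46 CPM in siYAP, 15.4, 14.6 and 17.2 in siTAZ, and 15.9, 15.4 and 14.8 in siNT libraries. All siYAP libraries were below the other 6, while its neighbour IFIT3 had 49.3 to 52.6 CPM in siYAP, 33.1 to 37.7 in siTAZ and 26.4 to 29.9 in siNT libraries. IFIT1 fell by 0.55 ± 0.13 after siYAP (edgeR, adjusted p = 0.000112) and by 0.58 ± 0.13 in siYAP against siTAZ (edgeR, adjusted p = 4.41e-05). The call of IFIT5 after siYAP (edgeR, adjusted p = 0.0492) was lost with DESeq2 (adjusted p = 0.114), with no filter on low counts, in a fit over these groups alone, and on leaving out any single siNT library or siYAP replicate 1 or 2. The call of IFIT2 after siTAZ was lost with DESeq2 (adjusted p = 0.0603) and without siNT replicate 1 or 3 or siTAZ replicate 1.

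IFI44L and IFI44, neighbours on chromosome 1 whose products limit virus replication by means not fully known, were among the most changed members. IFI44L had 13.7, 8.40 and 7.10 CPM in siYAP, 4.60, 2.57 and 4.04 in siTAZ, and 0.589, 0.403 and 0.679 in siNT libraries. The siNT libraries held 10, 7 and 12 counts of it, and every knockdown library lay above them. Its log2 fold changes were 4.11 ± 0.36 after siYAP (edgeR, adjusted p = 1.45e-17), 2.73 ± 0.37 after siTAZ (edgeR, adjusted p = 1.49e-09) and 1.38 ± 0.22 in siYAP against siTAZ (edgeR, adjusted p = 1.81e-07). IFI44 had 28.7, 22.4 and 25.1 CPM in siYAP, 10.3, 10.3 and 12.2 in siTAZ, and 5.25, 6.5 and 4.81 in siNT libraries. Its groups were separate too, at 2.20 ± 0.13 after siYAP (edgeR, adjusted p = 1.23e-23), 0.99 ± 0.14 after siTAZ (edgeR, adjusted p = 3.42e-08) and 1.22 ± 0.12 in siYAP against siTAZ (edgeR, adjusted p = 2.87e-14). Per kilobase of exon, IFI44L remained rare even after siYAP, with 0.95 CPM per kb against 12.5 for IFI44.

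TRIM22, a ligase that restricts viral transcription, had 108, 95.4 and 94.9 CPM in siYAP, 32.2, 28.3 and 30.7 in siTAZ, and 12.4, 16.8 and 13.4 in siNT libraries. The 3 groups did not overlap, and the log2 fold changes were 2.81 ± 0.08 after siYAP (edgeR, adjusted p = 4.23e-37), 1.1 ± 0.09 after siTAZ (edgeR, adjusted p = 8.17e-16) and 1.71 ± 0.07 in siYAP against siTAZ (edgeR, adjusted p = 7.23e-29). Of its 50-base words 12.1% recur, mostly in the overlapping gene OR56B1, so a share of its reads may be counted as ambiguous. SP100, a scaffold of nuclear bodies, had 201, 186 and 184 CPM in siYAP, 95.0, 97.6 and 98.4 in siTAZ, and 103, 98.2 and 90.3 in siNT libraries. Only siYAP stood apart, at 0.97 ± 0.05 against both siNT (edgeR, adjusted p = 1.64e-28) and siTAZ (edgeR, adjusted p = 1.46e-28). TRIM21, a cytosolic antibody receptor, was higher by 0.25 after siYAP (edgeR, adjusted p = 0.0343), a call lost with DESeq2 (adjusted p = 0.0864), with no filter on low counts, and without siNT replicate 1 or 2 or siYAP replicate 2 or 3.

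IFI6, a small protein of mitochondria and the endoplasmic reticulum that counters apoptosis, had 107, 98.5 and 93.7 CPM in siYAP, 45.8, 39.4 and 49.3 in siTAZ, and 28.6, 25.3 and 25.0 in siNT libraries. With 115 CPM per kb it was, after BST2 and LGALS3BP, the most abundant member in siYAP cells. It was higher by 1.92 ± 0.07 after siYAP (edgeR, adjusted p = 3.13e-31), by 0.77 ± 0.08 after siTAZ (edgeR, adjusted p = 1.13e-12) and by 1.15 ± 0.07 in siYAP against siTAZ (edgeR, adjusted p = 1.84e-22). XAF1, which promotes apoptosis by opposing XIAP, had 36.5, 26.6 and 22.6 CPM in siYAP, 39.8, 31.3 and 32.0 in siTAZ, and 18.2, 20.6 and 18.2 in siNT libraries. Both knockdowns lay above siNT, by 0.59 ± 0.17 after siYAP (edgeR, adjusted p = 0.0128) and 0.85 ± 0.17 after siTAZ (edgeR, adjusted p = 0.00322). The siYAP call was lost without siNT replicate 1 (edgeR, adjusted p = 0.0609) or 3 (edgeR, adjusted p = 0.0658), and its value was 0.37 without siYAP replicate 1. Between the knockdowns XAF1 was not called, but without siYAP replicate 1 it was lower in siYAP than in siTAZ, at -0.49 (edgeR, adjusted p = 2.22e-05), and so it was with no filter on low counts, at -0.29 (edgeR, adjusted p = 0.00248). IFI27 had at most 1.65 CPM in any library and was not called.

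**Figure D3:**
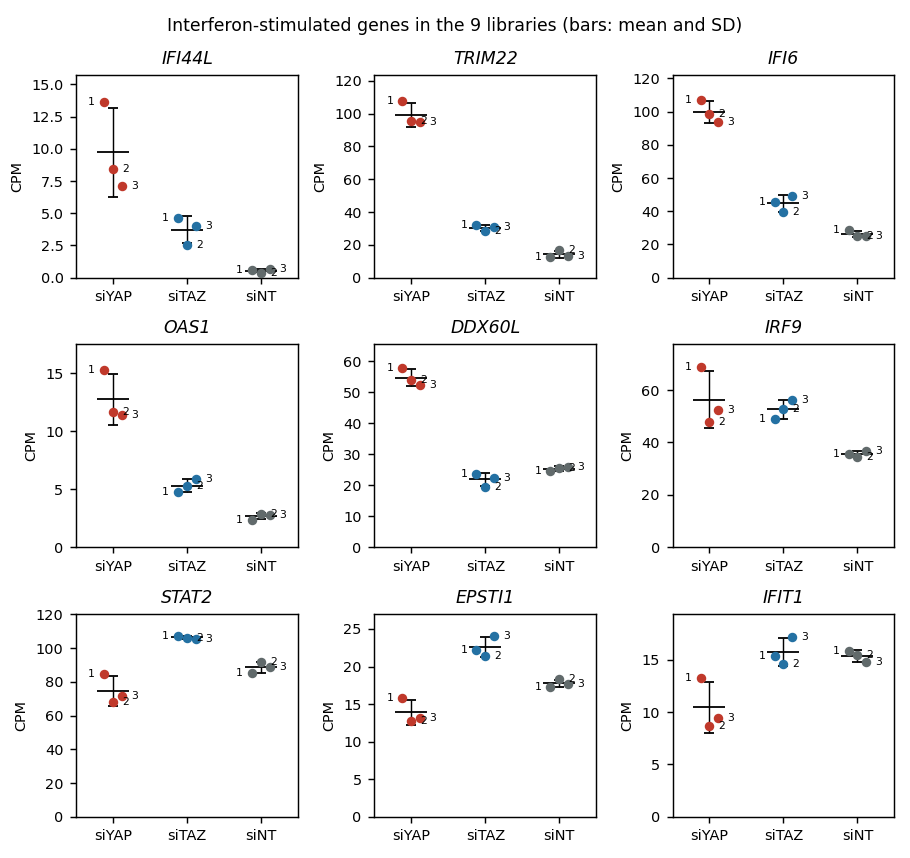
CPM of selected members in each library (points, numbered by replicate), with the mean and SD of each group (bars); axes start at 0. IFI44L, TRIM22, IFI6 and OAS1 descend over siYAP, siTAZ and siNT, DDX60L is high in siYAP alone, IRF9 is high in both knockdowns, and STAT2, EPSTI1 and IFIT1 are lowest in siYAP.

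DDX60 and DDX60L, neighbouring helicase-like genes on chromosome 4, differed after siTAZ. DDX60L had 57.7, 54.0 and 52.3 CPM in siYAP, 23.8, 19.5 and 22.4 in siTAZ, and 24.5, 25.5 and 26.0 in siNT libraries. It was higher by 1.11 ± 0.08 after siYAP (edgeR, adjusted p = 3.63e-20) and by 1.32 ± 0.08 in siYAP against siTAZ (edgeR, adjusted p = 1.86e-23). After siTAZ it fell by 0.21 ± 0.08 (edgeR, adjusted p = 0.0425), a call lost with DESeq2 (adjusted p = 0.0695), upper-quartile scaling, no filter on low counts or a fit over these groups alone, and on leaving out any single siNT library or siTAZ replicate 2 or 3. DDX60, by contrast, averaged 23.2 ± 2.52, 16.6 ± 2.24 and 11.9 ± 0.804 CPM in siYAP, siTAZ and siNT, with no overlap between the groups, and was higher in both knockdowns, by 0.97 and 0.49. The 2 genes share few sequences, 0.618% of the 50-base words of DDX60.

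EPSTI1, an interferon-induced gene first found in contacts of epithelium and stroma, had 15.9, 12.7 and 13.1 CPM in siYAP, 22.2, 21.5 and 24.0 in siTAZ, and 17.3, 18.3 and 17.7 in siNT libraries. The siYAP libraries were below and the siTAZ libraries above siNT. It fell by 0.35 ± 0.11 after siYAP (edgeR, adjusted p = 0.00298), was higher by 0.34 ± 0.10 after siTAZ (edgeR, adjusted p = 0.00539), and stood at -0.70 ± 0.10 in siYAP against siTAZ (edgeR, adjusted p = 2.64e-08). IFI35 and the secreted glycoprotein LGALS3BP were higher in both, IFI35 by 0.66 and 0.34 and LGALS3BP by 0.53 and 0.44 after siYAP and siTAZ. LGALS3BP, at 453 ± 15.1, 423 ± 7.14 and 313 ± 7.46 CPM in siYAP, siTAZ and siNT, had the most counts of any member.

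Of the proteins that act at membranes, BST2 (tetherin, which holds budding virus at the cell surface) had 219 to 239 CPM in siYAP, 140 to 148 in siTAZ and 104 to 113 in siNT libraries. It was higher by 1.09 and 0.40 after siYAP and siTAZ, and per kilobase it was the most abundant member in every group. The IFITM genes, which block virus entry, did not move alike: after siYAP IFITM1 was higher by 0.74, IFITM2 fell by 0.32, and IFITM3 had a difference of 0.01 with an interval of -0.09 to 0.11. After siTAZ IFITM1 was called at 0.55 (edgeR, adjusted p = 0.0457) with overlapping libraries, and the call was lost with DESeq2 and on leaving out any single siNT library or siTAZ replicate 2; without the last the value was 0.22. These genes share 32.0%, 31.0% and 16% of their 50-base words with other genes (IFITM1, IFITM2 and IFITM3), and IFITM1 shares 351 exon bases with IFITM2, so their counts are uncertain.

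The dynamin-like GTPases MX1 and MX2 lie next to each other on chromosome 21. MX1 was higher by 0.80 after siYAP and by 0.50 after siTAZ, and MX2 by 0.67 after siYAP, while its siTAZ libraries (12.7 to 16.7 CPM) enclosed those of siNT (13.4 to 14.2 CPM). The siTAZ call of MX1 was lost without siNT replicate 2 (edgeR, adjusted p = 0.0536) or 3 (edgeR, adjusted p = 0.0614). MX1 differed between the knockdowns by 0.30 (edgeR, adjusted p = 0.0490), but by 0.08 without siYAP replicate 1 (edgeR, adjusted p = 0.633). That call was also lost with DESeq2 (adjusted p = 0.133) and on leaving out any single siTAZ library (edgeR, adjusted p of 0.0538 to 0.155). RSAD2 (viperin, which makes a chain-terminating nucleotide) had 42, 23 and 23 counts in siYAP, 9, 8 and 9 in siTAZ, and 2, 10 and 0 in siNT libraries. The siNT libraries straddle the floor of 3 counts, so its siYAP fold change depends on them: 2.76 ± 0.65 on the log2 scale (edgeR, adjusted p = 3.47e-05), or 4.62 without siNT replicate 2. Its siTAZ difference of 1.04 was not called, but without that library it was called at 2.91 (edgeR, adjusted p = 0.0189). SAMD9L, a regulator of translation in antiviral defence, was higher by 0.32 after siYAP. Its neighbour SAMD9 fell by 0.30 after siTAZ and had a difference of 0.06 after siYAP, with an interval of -0.05 to 0.16.

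Among the PARP genes, whose products attach ADP-ribose to proteins, PARP9, its partner DTX3L and PARP14 lie together on chromosome 3. They were higher by 0.66, 0.68 and 0.39 after siYAP and by 0.48, 0.20 and 0.19 after siTAZ. The siTAZ call of DTX3L was lost without siNT replicate 3 (edgeR, adjusted p = 0.0691), and that of PARP14 without siNT replicate 1 or 3 or siTAZ replicate 1 or 3. PARP12 was higher by 0.25 after siYAP, a call lost without siNT replicate 3 (edgeR, adjusted p = 0.101). PARP10 was not called against siNT and was lower in siYAP against siTAZ, at -0.20, a call lost without siYAP replicate 3 (edgeR, adjusted p = 0.111).

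In the order of levels per kilobase of exon, siNT cells had most BST2 (97.1 CPM per kb), LGALS3BP (87.3), IFITM3 (85.1), IFI6 (30.4), UBE2L6 (29.1) and ISG15 (26.2), and least IFI27 (0.20), IFI44L (0.0544), RSAD2 (0.0478) and CMPK2 (0.0134). The members most changed by siYAP, IFI44L, TRIM22, RSAD2, OAS1 and IFI44, had between 0.0478 and 2.71 CPM per kb in siNT cells, and IFI6, also over 2-fold higher, had 30.4. RSAD2 passed the filter on low counts only through siYAP libraries, and IFI44L only through siYAP and siTAZ libraries. For both, a low siNT level beside a large difference thus follows in part from the filter. Grouped by promoter, 24 tested members with an ISRE match included 19 higher and 2 lower after siYAP (median log2 fold change 0.77), and 12 tested members without a match included 10 higher and 2 lower (0.63). After siTAZ the members with a match had 13 higher and 2 lower (median 0.19), and those without had 8 higher and 1 lower (0.30). Of all genes tested, 33.8% were higher and 33.4% lower after siYAP, and 16.4% were higher and 18.2% lower after siTAZ. Members that fell after siYAP were found in both sets: IFIT1 and EPSTI1 with a match, TRIM25 and STAT2 without.

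Of the 61 other genes of the pathway listed, 51 could be tested. After siYAP 34 were higher and 7 lower, with a median log2 fold change of 0.49, after siTAZ 19 were higher and 6 lower (0.12), and in siYAP against siTAZ 29 were higher and 7 lower (0.24). Over all genes tested, the shares called higher and lower were 33.8% and 33.4% after siYAP, 16.4% and 18.2% after siTAZ, and 33.2% and 33% in siYAP against siTAZ. The 9 interferon genes had too few counts for a test: IFNA2, IFNK, IFNG, IFNL1, IFNL2 and IFNL3 had none, and IFNB1 had 0 or 1 count per library. IFNE had 0 to 9 counts in siYAP, 7 to 10 in siTAZ and 3 to 7 in siNT libraries. A count of 0 allows a level of up to 0.157 to 0.177 CPM in these libraries.

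The 6 receptor chains were all higher after siYAP, by 0.30 to 0.53 (33.8% of all genes were higher). IFNAR1 had 226 to 238 CPM in siYAP, 142 to 148 in siTAZ and 160 to 162 in siNT libraries, so that it was higher by 0.53 after siYAP and fell by 0.15 after siTAZ. IFNAR2 was higher by 0.30 after siYAP and had a difference of 0.18 after siTAZ that was not called (edgeR, adjusted p = 0.114). Of the kinases at the receptors, JAK1 fell by 0.34 and 0.26 after siYAP and siTAZ, and TYK2 fell by 0.19 in each. The factors IRF1 and IRF7, which also drive interferon and its targets, were higher by 0.34 and 0.53 after siYAP. After siTAZ IRF1 was higher by 0.20, and IRF7 had a difference of 0.00 with an interval of -0.24 to 0.25.

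All 5 tested sensors of foreign nucleic acid were higher in both knockdowns (33.8% of all genes were after siYAP and 16.4% after siTAZ). The RNA sensor DDX58 (RIG-I) had 30.3 to 31.7 CPM in siYAP, 15.1 to 20.2 in siTAZ and 12.3 to 13.6 in siNT libraries, and was higher by 1.24 and 0.48 after siYAP and siTAZ. IFIH1 (MDA5), a second RNA sensor, had 17.3 to 22.1, 9.88 to 11.2 and 5.52 to 7.25 CPM in the same order, and was higher by 1.63 and 0.68. DHX58, TLR3 and CGAS were higher by 0.61, 0.65 and 0.72 after siYAP and by 0.47, 0.45 and 0.36 after siTAZ. Behind the sensors, the kinase IKBKE was higher by 1.23 after siYAP, and the adaptors STING1 and TICAM1 by 1.00 and 0.88, whereas MAVS, the adaptor of DDX58 and IFIH1, fell by 0.91. Of the inhibitors, SOCS3 was higher by 1.27 after siYAP and fell by 0.44 after siTAZ, SOCS1 was higher by 0.73 after siYAP and fell by 0.38 after siTAZ, and PTPN2 fell by 0.91 after siYAP. DHX58, TLR3, CGAS, STING1, TICAM1, MAVS, SOCS1 and PTPN2 were named after their values were seen.

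Of 23 interferon-induced genes outside the members, 16 were higher and 2 lower (GBP1 and PNPT1) after siYAP (33.8% and 33.4% of all genes were), and 9 were higher and 1 lower (SLFN5) after siTAZ (16.4% and 18.2% of all genes were); PNPT1 and SLFN5 were named after their values were seen. CCL5, a chemokine for T cells, had 48.8, 44.9 and 46.5 CPM in siYAP, 3.36, 3.49 and 3.75 in siTAZ, and 1.83, 0.633 and 0.679 in siNT libraries, a log2 fold change of 5.48 ± 0.23 after siYAP (edgeR, adjusted p = 1.56e-37) and 1.76 ± 0.26 after siTAZ (edgeR, adjusted p = 9.95e-09). CXCL10 and CXCL11, ligands of CXCR3, had 2.30 to 3.67 and 4.15 to 4.70 CPM in siYAP libraries and at most 0.690 CPM in any siTAZ or siNT library. IDO1, which breaks down tryptophan, had 15 to 21 counts in siYAP, 0 to 4 in siTAZ and 0 to 3 in siNT libraries. With these counts IDO1 passed the filter on low counts only through its siYAP libraries. CXCL10 and CXCL11 lay near or below its cutoff of 0.552 CPM in the siTAZ and siNT libraries. The part of these genes in the counts here and over the whole pathway list may thus follow in part from the filter. IFI16, a DNA sensor, was higher by 1.12 after siYAP, PLSCR1 by 1.05, APOL6 by 1.21 and LAMP3 by 1.49, the last with at most 1.41 CPM in any library. GBP1, a guanylate-binding protein best known as a target of interferon gamma, went the other way: it averaged 97.8 ± 8.82 CPM in siYAP, 249 ± 6.38 in siTAZ and 201 ± 6.82 in siNT libraries, fell by 1.04 after siYAP and was higher by 0.31 after siTAZ.

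**Figure D4:**
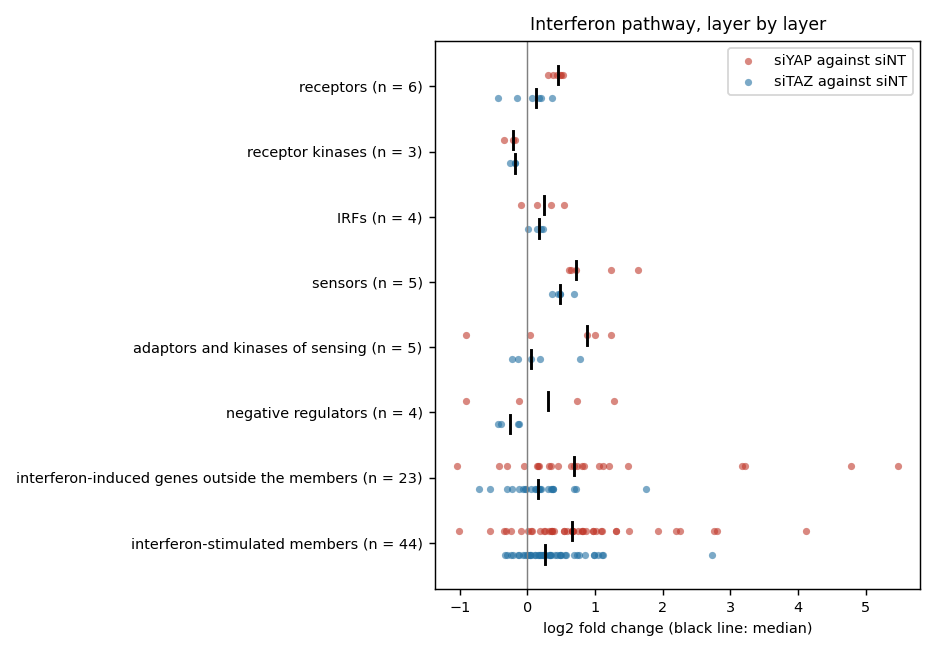
Log2 fold change of tested genes of the pathway list, by layer, and of the tested members (bottom row), in siYAP against siNT (red) and siTAZ against siNT (blue), with the median of each layer as a black line. Receptors and sensors lie right of 0 after siYAP, the receptor kinases left of it, and the interferon-induced genes spread widest.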

How the data were processed

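Each deposited file holds the raw counts of a library per Ensembl gene, not normalized by the authors. Per the submitters' processing notes the tools were HTSeq, STAR 2.5.0c, Trim Galore, Picard and SAMtools, with no settings. The build named there is mm10, a mouse build, although the IDs in the files are human; the annotation release and the strand setting are not given in the sources used here, so reads of overlapping genes on opposite strands cannot be told apart. Of the 45 members, 14 have exons that overlap another gene in GENCODE 29, which also gave the gene coordinates and exon lengths (GRCh38). The shares of reads outside annotated genes (4.73% to 7.49%) and of ambiguous reads (6.33% to 6.91%) were left out of library sizes.

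Genes were kept with filterByExpr (minimum count 10, minimum total 15) and scaled by TMM. The quasi-likelihood fit of edgeR 4.0.16 (R 4.3.3, robust) used all 9 libraries, and the 3 comparisons were tested two-sided with Benjamini-Hochberg adjustment over 15560 genes. The standard errors come from the same fit. The 95% intervals were built from them with a normal approximation and not from the quasi-likelihood test. They may therefore be too narrow for genes whose libraries vary widely. DESeq2 1.42.0, RLE and upper-quartile scaling, other filters, a fit over the compared groups alone, the replicate number as a block, a threshold of 0.01 and leaving out each library were alternatives. Replicates of a group differed by more than counting noise (chi-square per gene 2.59 to 5.31). Same-numbered libraries did not deviate together (r of -0.03 to 0.01), so the main fit has no block. The members and gene lists were chosen with earlier results of these data known, and that interferon-stimulated genes were mostly higher after siYAP was among those results. Values per library were given for the 8 members with the largest absolute log2 fold change per comparison (called, average log2 CPM of at least 1, no overlap of libraries), for STAT2, IRF9, ISG15 and IFIT1, and for members called in opposite directions against siNT. Other genes of the pathway were named if called with an absolute log2 fold change of at least 1 against siNT, besides 8 fixed ones, of which 1 is not reported here. Words of 50 bases shared with other genes were counted in GENCODE 29 transcripts.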

Additional observations from a re-analysis of the deposited data

Results flagged for a closer look

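For 3 of the 44 tested members the effects of the knockdowns against siNT were called in opposite directions, as they were for 8.37% of all genes tested, so the count itself is no result about the members. The test of the difference itself, siYAP against siTAZ, was called for each. DDX60L stood at 1.32 ± 0.08 in that comparison (edgeR, adjusted p = 1.86e-23), with 1.11 after siYAP and -0.21 after siTAZ, and its siTAZ call did not hold with DESeq2, with upper-quartile scaling, or on leaving out any single siNT library. STAT2 stood at -0.51 ± 0.06 (edgeR, adjusted p = 1.09e-11), with -0.24 after siYAP and 0.26 after siTAZ, in all libraries of each group. EPSTI1 stood at -0.70 ± 0.10 (edgeR, adjusted p = 2.64e-08), with -0.35 after siYAP and 0.34 after siTAZ, also in all libraries of each group. The cause was not tested.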

How the results depend on the processing

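No called value of a member reversed under any alternative run, and the counts of genes and of members called stayed within 1.5 times the main ones. The median log2 fold change of the members after siTAZ was 0.26 in the main fit and 0.28 with upper-quartile scaling. Leaving out each library in turn gave 9995 to 10089 genes, 36 to 38 members and a median of 0.54 to 0.72 in siYAP against siNT, the lowest median without siYAP replicate 1. It gave 4576 to 4889 genes, 21 to 27 members and a median of 0.25 to 0.28 in siTAZ against siNT, and 9832 to 10028 genes, 28 to 32 members and a median of 0.21 to 0.39 in siYAP against siTAZ. With the replicate number as a block, 38, 27 and 32 members were called in the 3 comparisons (10434, 5413 and 10268 genes, medians 0.66, 0.26 and 0.30); the numbers do not pair the libraries, and the calls on members that changed were those of IFIT5, IFITM1 and XAF1. DESeq2 called 37, 24 and 29 members (10039, 4695 and 9931 genes), and a threshold of 0.01 left 36, 23 and 27 (9245, 4034 and 9055 genes). Upper-quartile scaling turned the balance of all genes called after siTAZ, to 2865 higher and 2616 lower, against 2559 and 2832, while the members kept 25 higher calls and 2 lower. Over all alternatives, calls on single members were lost 21, 35 and 24 times in the 3 comparisons, among 4, 7 and 7 members. Depth limits RSAD2 and CMPK2, which had libraries at 0 counts, and the interferon genes themselves, whose libraries mostly lay at or below the floor of 3 counts.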
